A study of Mus musculus with 2 samples.

Results

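Among droplet barcodes of mouse leptomeninges, 388 of 6026 kept barcodes passed a threshold for transcripts of neuronal dendrites, synapses and axons. Of these 388, 56 had at least 1% of their RNA molecules from the nuclear RNA Malat1. Their share was 14.5% and 14.3% in the 2 libraries, against 56.9% and 40.7% of the other kept barcodes. Of the 56, 30 of 43 and 12 of 13 also held transcripts of other cells or hemoglobin above a set mark. The 388 barcodes, called members here, were chosen by what they contained. Kept barcodes had 400 genes or more, and no more than 10% of their unique molecular identifiers (UMIs, 1 per captured RNA molecule) came from mitochondrial genes. It was a member when 6 neuronal genes (Nrgn, Camk2a, Ddn, Kif5a, Pcsk1n and Snap25) summed to at least 5 UMIs. That sum, N, also had to exceed the sum S of a second list of 5 genes (Slc1a2, Ntsr2, Bcan, Gria2 and Meg3). The macrophage, endothelial and arachnoid genes Mrc1, Cldn5, Slc7a11 and Gjb2 could reach at most 3 UMIs together. Because these values chose the members, every comparison with the other kept barcodes is a description and carries no test.

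The material was the thin pia and arachnoid membranes peeled by hand off the cerebral hemispheres of Pdgfra-H2BGFP mice, males and females, at 3 months of age. The Pdgfra-H2BGFP allele, carried by all animals, marks the nuclei of Pdgfra-expressing cells such as fibroblasts and oligodendrocyte precursors with a green fluorescent protein. There were 2 libraries, R1 and R2, of 1 group, made from enzymatically digested tissue. No treatment is named, and the labels leave unsaid how many animals were pooled and whether R1 and R2 shared any.

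The neuropil is the felt of dendrites, axons, synapses and fine astrocyte processes that fills the cortex between cell bodies and reaches up to the pial surface. Neurons send chosen mRNAs such as Camk2a, Shank1 and Arc out along their dendrites, where they are translated near synapses, and astrocytes and oligodendrocytes likewise export mRNAs such as Slc1a2 and Mbp to their processes. The long noncoding RNA Malat1 is retained in the nucleus and abundant there, so its share of a barcode's UMIs was used here as a mark of nuclear RNA. That share also differed between barcodes with markers of different cell types, as given below, so it is no direct measure of the amount.

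The small noncoding RNA Bc1 is carried to dendrites in rodent neurons and is shown because its level in members, outside the rule, differed between the libraries. It was chosen after its values were seen. It lies on the plus strand at chr7:144914470-144914637 (mm10), and the GENCODE transcript is 168 bases long. The capitals mark its longest run of A, at positions 77 to 99 counted from the 5′ end.
Bc1: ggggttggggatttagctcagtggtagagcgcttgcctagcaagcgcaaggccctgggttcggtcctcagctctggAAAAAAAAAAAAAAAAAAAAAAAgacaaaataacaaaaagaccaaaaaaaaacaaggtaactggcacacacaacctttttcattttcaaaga
The run is 23 bases long, and A makes up 64.1% of the bases from its start to the end of the RNA, against 14.5% of the bases before it.

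Members made up 297 of 2988 kept barcodes in R1 (9.94%, exact 95% binomial interval 8.89 to 11.1) and 91 of 3038 in R2 (3.00%, 2.42 to 3.67), a mean of 6.47% ± 4.91 (SD, n = 2). Intervals in this text cover counting error only. The 2 intervals did not overlap, so the share differed between the libraries by more than counting error. The whole libraries held 7276 and 6743 barcodes with 14586462 and 12359040 UMIs, and they shared 93 barcode sequences, of which 0 belonged to members. Members had a median of 2428 UMIs and 1034 genes in R1 and 2272 UMIs and 956 genes in R2, against 1566 UMIs and 892 genes and 1231 UMIs and 714 genes in the other kept barcodes. A minimum of 5 neuronal UMIs favours deep barcodes, so the rule sets this difference in depth in part.

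The sum N had a median of 35 UMIs per member in R1 (range 5 to 258) and 20 in R2 (5 to 129). At least 1 UMI of the same 6 genes was also present in 44.3% of the other kept barcodes of R1 and 23.0% of R2. Of the rule genes, Nrgn lies at chr9:37544492-37552904 and Pcsk1n at chrX:7919822-7924410, and of the genes outside it Psd lies at chr19:46312087-46327156 and Camk2n1 at chr4:138454314-138460123 (mm10). Just inside the threshold, 23 members of R1 and 10 of R2 had exactly 5 UMIs, with a median depth of 2146 and 1443 UMIs. Just outside it, 36 and 16 barcodes had 4 UMIs and met the rest of the rule, with a median depth of 1478 and 948.5 UMIs. A further 14 and 9 kept barcodes with 5 or more neuronal UMIs were left out because S was as high or higher, and 44 and 18 because of the macrophage, endothelial and arachnoid genes.

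**Figure D1:**
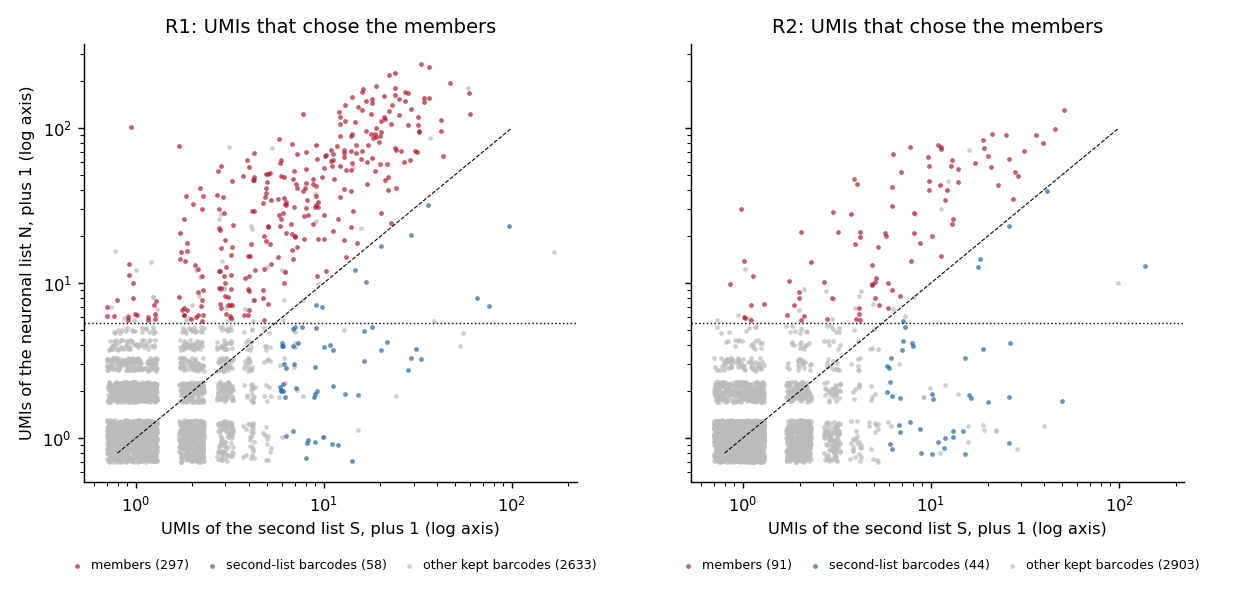
UMIs of the 6 neuronal genes (vertical, log axis) against UMIs of the 5 second-list genes (horizontal, log axis), each plus 1 and spread slightly so that points do not hide each other, for every kept barcode of R1 (left) and R2 (right); the dotted line lies just under 5 UMIs, the dashed line is equality, and second-list barcodes are shown apart from the other kept ones. The 297 members of R1 and 91 of R2 form a band above both lines that reaches 258 and 129 UMIs.

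Of the 6 neuronal genes that chose the members, all but Snap25 had a UMI in most members of both libraries. Camk2a, the calcium/calmodulin-dependent kinase II subunit of excitatory synapses, was counted in 285 of 297 members of R1 and 89 of 91 of R2. Summed over members its level, as UMIs scaled by the group's total (CPM), was 4806 CPM in R1 and 3937 CPM in R2, against 146 and 80.0 CPM in the other kept barcodes. Pcsk1n, which encodes the secretory granule peptide proSAAS, had 5417 and 4961 CPM in members, against 127 and 65.7 CPM in the others. The axonal motor Kif5a had 2661 and 2183 CPM in members, against 74.0 and 36.3 CPM in the others. Ddn, a postsynaptic protein whose mRNA lies in dendrites, had 1023 and 683 CPM in members, against 25.5 and 9.93 CPM in the others. All 4 genes, which the rule uses, were high in members of both libraries. Nrgn, a postsynaptic calmodulin-binding protein, was uneven, with 2056 CPM in members of R1 and 620 CPM in members of R2, against 45.1 and 19.9 CPM in the others. Snap25, a presynaptic membrane-fusion protein, was the sparsest of the 6, with a UMI in 115 of 297 and 18 of 91 members.

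Of the second list, Slc1a2 was nearly as widespread, although the rule held it below the neuronal sum. This main glutamate transporter of astrocytes had a UMI in 269 of 297 members of R1 and 79 of 91 of R2. Its level was 2668 and 3182 CPM in members, against 256 and 230.2 CPM in the other kept barcodes. The other 4 genes were sparse. Ntsr2 and Bcan, which mark astrocytes and glia, had 91.4 and 148 CPM and 161 and 80.1 CPM in members. Gria2, a glutamate receptor subunit, had 60.6 and 29.5 CPM in members, against 20.2 and 10.9 CPM in the others. Meg3, a long noncoding RNA of neuronal nuclei, was lower in members, with 61.7 and 21.1 CPM, against 111 and 44.5 CPM in the others.

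The comparison with the other kept barcodes was then taken over all genes. A gene counted as higher when its CPM ratio, with 10 CPM added on each side, was at least 4-fold in both libraries and the higher side had at least 50 CPM in both. Of 3829 genes with enough counts, 282 were higher in members (7.36%) and 106 were lower (2.77%). The median gene was lower in members, by -0.67 in R1 and -0.50 in R2 on the log2 scale. Of the 3829 genes, 1096 (28.6%) lay above the other kept barcodes in both libraries and 2409 (62.9%) lay below them in both. The lists below leave out the rule genes, and their counts were read beside these background shares without a test.

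Transcripts of dendrites and postsynaptic sites had the highest median of the 19 lists. The rule favours this order in part, since Camk2a, Nrgn and Ddn, which chose the members, are themselves dendritic or postsynaptic. The presynaptic Snap25 added few UMIs to N. Of 25 dendritic and postsynaptic genes, 17 had enough counts, 14 were at least 4-fold higher in members and 0 were lower, and all 17 lay above the other kept barcodes in both libraries. The median over all 25 genes was 2.63 on the log2 scale, and over all genes tested it was -0.61. List medians here and below take in genes without enough counts, which the second value leaves out, so the sets are unlike. Together the list gave 8758 CPM in members of R1 and 7363 CPM in members of R2, against 745 and 562 CPM in the others, a log2 ratio of 3.61 ± 0.11 (SD, n = 2).

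Psd, an exchange factor for the small GTPase Arf6 at postsynaptic membranes, had 1843 and 1635 CPM in members, against 59.1 and 28.3 CPM in the other kept barcodes, a log2 ratio of 5.08 ± 0.48 (SD, n = 2). It was found in 243 of 297 and 73 of 91 members, and both libraries stood apart from the others in the same way. Shank1, a master scaffold of the postsynaptic density, had 817 and 830.3 CPM in members, against 41.1 and 23.3 CPM in the others. Ppp1r9b, the spine protein spinophilin, had 849.5 and 712 CPM in members, against 84.2 and 56.3 CPM in the others. For both scaffolds the members of the 2 libraries were close to each other. Map2, the microtubule protein of dendrites, was not: it had 769 CPM in members of R1 and 266 CPM in members of R2, against 42.2 and 28.8 CPM in the others. Bc1 went the other way, with 262 CPM in members of R1 and 872 CPM in members of R2, against 10.5 and 15.2 CPM in the others. Cnih2, an auxiliary subunit of AMPA-type glutamate receptors, had 669.8 and 539.5 CPM in members, against 17.6 and 9.27 CPM in the others.

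Among the 10 genes outside all lists with the largest ratios were 2 regulators of the kinase named above. Camk2n1 and Camk2n2 encode the natural inhibitors of calcium/calmodulin-dependent kinase II. Camk2n1 had 7395 and 5585 CPM in members, against 312 and 170.2 CPM in the other kept barcodes, and at least 1 UMI in 286 of 297 and 91 of 91 members. Camk2n2 had 640.1 and 464 CPM in members, against 20.9 and 12.1 CPM in the others. Dlgap3, a scaffold that links the postsynaptic density to Shank proteins, had 409 and 379 CPM in members, against 16.0 and 8.11 CPM in the others. Nrsn1, a vesicle membrane protein of neurites, the G protein subunit gene Gng13, the neuronal membrane protein gene Ctxn1, the F-box gene Fbxl16, the phosphatase 2A subunit gene Ppp2r2c and the zinc finger gene Zfp365 had log2 ratios between 4.37 and 4.66. Cdr1os, with a log2 ratio of 4.13 ± 0.16 (SD, n = 2), is antisense to Cdr1, and its reads cannot be told apart from those of its partner because the strand setting of the counting is not given in the sources used here.

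Presynaptic genes had the next highest list median. By the summed level they did not come next, with a log2 ratio of 1.74 ± 0.35 (SD, n = 2). The list of glutamate and GABA receptors was at 2.77 by that measure, and further lists also lay above the presynaptic one. Of 21 genes, 13 had enough counts, 9 were at least 4-fold higher in members and 0 were lower, and the list median was 2.20 on the log2 scale. Cplx2, a complexin that clamps vesicle fusion, had 680.5 and 556 CPM in members, against 33.7 and 17.9 CPM in the other kept barcodes. Slc17a7, the vesicular glutamate transporter of cortical excitatory neurons, had 462.5 and 291 CPM in members, against 25.4 and 7.45 CPM in the others. Both genes were high in members of both libraries. Vamp2, the vesicle fusion protein synaptobrevin, had 364 and 207 CPM in members, against 109 and 81.5 CPM in the others, short of the 4-fold mark. Atp6v0c, a subunit of the proton pump used by vesicles and lysosomes in all cells, was no higher, with 381 and 312 CPM in members, against 530.3 and 536 CPM in the others. Syt1, the calcium sensor of vesicle release, was chosen after its values were seen. It had 188 CPM in members of R1 and 37.9 CPM in members of R2, against 14.6 and 8.28 CPM in the others.

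Genes of axons and the cytoskeleton were mixed. Of 21 genes, 15 had enough counts and 7 were at least 4-fold higher in members, with 0 lower and a list median of 1.74 on the log2 scale. The kinesin gene Kif5c had 611 and 358 CPM in members, against 29.6 and 17.9 CPM in the other kept barcodes. Stmn1, which encodes a tubulin-binding protein, had 372 and 333 CPM in members, against 79.7 and 67.6 CPM in the others. Dynll2, a dynein light chain also found in spines, had 361 and 253 CPM in members, against 86.4 and 88.4 CPM in the others, and did not reach the 4-fold mark. The widely expressed spectrin gene Sptbn1 had 401 and 367 CPM in members, against 537 and 544 CPM in the others.

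Receptor subunits themselves were sparse. Of 18 genes for glutamate and GABA receptors and their partners, 2 had enough counts and 1 was higher. That gene was Olfm1, a secreted protein found with AMPA-type receptors, with 1009 and 502 CPM in members, against 35.8 and 28.0 CPM in the others. Gabbr1, a subunit of the GABA-B receptor, had 185 and 194 CPM in members, against 63.0 and 56.1 CPM in the others, below the 4-fold mark. Its partner Gabbr2 had 82 and 7 UMIs over all members and the NMDA-type receptor gene Grin2b had 88 and 10. Among 18 genes of calcium binding and ion transport, 11 had enough counts, 5 were higher and 0 lower. The neuronal calcium sensor Hpcal4 had 742 and 413 CPM in members, against 23.3 and 10.9 CPM in the others. Calm3, a calmodulin gene, had 755 and 620 CPM in members, against 174 and 181 CPM in the others.

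**Figure D2:**
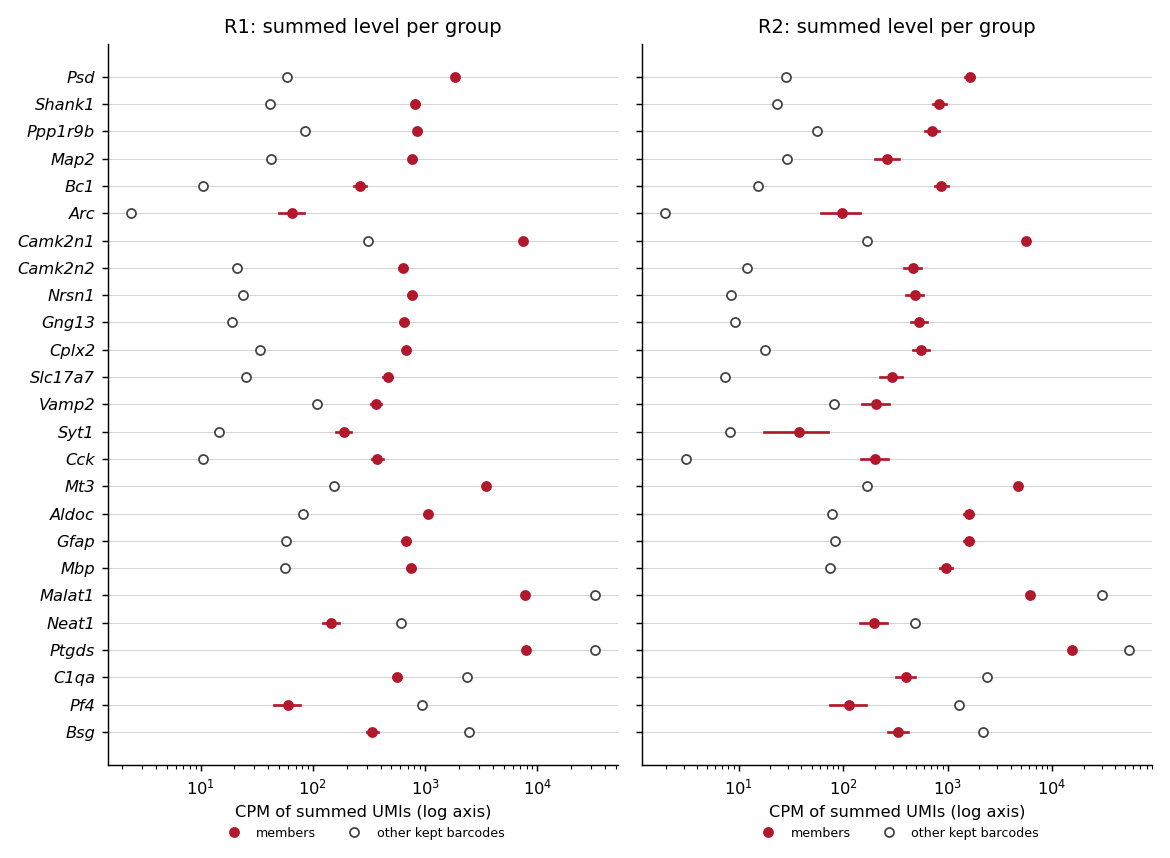
CPM of summed UMIs (horizontal, log axis) of 25 genes in members (filled, with exact 95% Poisson intervals that cover counting error only) and in the other kept barcodes (open), for R1 (left) and R2 (right). Dendritic, synaptic and glial process transcripts from Psd to Mbp lie to the right in members, and Malat1, Neat1, Ptgds, C1qa, Pf4 and Bsg lie to the left, with Bc1 at 262 CPM in members of R1 and 872 CPM in members of R2.

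Among markers of neuron type, those of excitatory neurons reached the 4-fold mark. Of 26 genes of transmitter type and cortical layer, 7 had enough counts and 3 were higher, namely Slc17a7, the neuropeptide gene Cck and the upper-layer transcription factor Cux2. Cck had 375 and 202 CPM in members, against 10.5 and 3.15 CPM in the other kept barcodes, and UMIs in 151 of 297 and 28 of 91 members. Cux2 had 113 and 84.3 CPM in members, against 6.42 and 5.13 CPM in the others. The enzymes of GABA synthesis, chosen after their values were seen, were rare: Gad1 had 26 and 6 UMIs over all members and Gad2 had 28 and 8. The markers of Cajal-Retzius neurons Lhx5 and Trp73 had 0 UMIs in members, which allows up to 3.19 CPM in R1 and 12.6 CPM in R2.

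Of the neuropeptide and secretory list, 14 genes beside Pcsk1n, 4 had enough counts, 3 were higher and 0 were lower. Cpe, the carboxypeptidase that trims peptide hormones in neurons and is also an astrocyte transcript, had 1954 and 2369 CPM in members, against 344 and 311 CPM in the other kept barcodes. Scg3, a granin of secretory granules, had 146 and 207 CPM in members, against 17.8 and 15.7 CPM in the others. The opioid precursor Penk was lower in members, with 73.4 and 29.5 CPM, against 146 and 201 CPM in the others, without reaching 4-fold, and Pdyn had 0 UMIs in members.

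Immediate-early genes, which cells switch on within minutes of stimulation and often during tissue digestion, were mostly lower in members. Of 12 genes, 8 had enough counts, of which 7 lay below the other kept barcodes in both libraries, against 62.9% of all genes, and 1 was at least 4-fold higher, beside 7.36% of all genes, from which nothing is read about the list. Fos had 86.1 and 16.9 CPM in members, against 287 and 277.5 CPM in the others. Junb had 119 and 59.0 CPM in members, against 401 and 356.5 CPM in the others. Jun had 115 and 37.9 CPM in members, against 472 and 415 CPM in the others. All 3 transcription factor mRNAs thus stood lower in members of both libraries, but not by 4-fold in both. The gene at least 4-fold higher was Arc, whose mRNA travels to active synapses, with 64.9 and 96.9 CPM in members, against 2.39 and 1.99 CPM in the others. Arc was counted in 45 of 297 and 17 of 91 members. Egr3, a transcription factor chosen after its values were seen, had too few counts in R2 for the comparison and lay above the others, with 73.4 and 37.9 CPM in members, against 10.5 and 8.11 CPM. The neuron-restricted factor Npas4 had 0 UMIs in members.

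Glial process transcripts accompanied the neuronal ones in most members. Of 15 astrocyte genes outside the rule, all 15 had enough counts, 6 were at least 4-fold higher and 0 were lower. Mt3, a metallothionein of astrocytes and neurons, had 3450.1 and 4750.1 CPM in members, against 153 and 169 CPM in the other kept barcodes, and a UMI in 268 of 297 and 83 of 91 members. Its relative Mt1 had 2219 and 3570.0 CPM in members, against 616 and 719 CPM in the others, under 4-fold in R1. Cst3, made by many cell types, had 6969 and 6824 CPM in members, against 8402 and 6736 CPM in the others, and did not separate the groups. Aldoc, an astrocyte enzyme of glycolysis, and Gfap, the intermediate filament of astrocytes, were chosen after their values were seen. Aldoc had 1048 and 1597 CPM in members, against 82.3 and 78.3 CPM in the others. Gfap had 675 and 1585 CPM in members, against 57.5 and 83.1 CPM in the others.

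Astrocyte and dendritic transcripts were counted in the same barcodes. At least 1 UMI of Mt3, Aldoc, Gfap, Mlc1 or Aqp4, picked from the astrocyte list, was present in 94.3% of members of R1 and 95.6% of R2. Mt3, which is also a neuronal gene, was alone present in 90.2% and 91.2% of members. Aldoc was present in 78.1% and 83.5%, and Gfap in 52.2% and 69.2%. How much of the Mt3 RNA came from neurons was not tested, so the shares with both kinds of transcript below are uncertain. Both a dendritic-list UMI and an astrocyte UMI were present in 276 of 297 members of R1 (92.9%) and 87 of 91 of R2 (95.6%). After thinning to 1000 UMIs per barcode, both were present in 86.6% and 87.3% of members, against 17.6% and 8.48% of kept barcodes with macrophage markers and 55.0% and 71.4% of those in which the second list exceeded N. The members' interval overlapped that of the second-list barcodes in R2, at 78.0% to 93.8% against 51.3% to 86.8%. The astrocyte genes took a median of 0.539% and 0.876% of a member's UMIs, with quartiles of 0.253% to 0.988% in R1 and 0.255% to 1.43% in R2. The dendritic list took a median of 0.967% and 0.866%, with quartiles of 0.434% to 1.31% and 0.283% to 1.10%. For both, the quartiles of the 2 libraries overlapped.

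Oligodendrocyte transcripts were present in smaller numbers. Of 11 genes, 8 had enough counts, 2 were higher and 0 were lower, with a list median of 0.54 on the log2 scale. Mbp, whose mRNA travels out to the myelin sheath, had 748.5 and 965 CPM in members, against 55.8 and 74.5 CPM in the other kept barcodes, and a UMI in 169 of 297 and 48 of 91 members. Mobp, another myelin mRNA carried to processes, had 120.1 and 143 CPM in members, against 8.36 and 6.95 CPM in the others. The stress protein gene Cryab had 134 and 202 CPM in members, against 102 and 129.8 CPM in the others.

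Genes of oligodendrocyte precursors were higher as sums, but a few barcodes carried much of them. Of 7 genes, 3 had enough counts and all 3 were higher, namely Ptprz1, Olig1 and Tnr. Ptprz1, a receptor phosphatase of precursors and astrocytes, had 235 and 56 UMIs over all members, of which a single barcode held 65 in R1 and 21 in R2. Olig1, the transcription factor of the lineage, had 86 and 32 UMIs, of which single barcodes held 28 and 20. Tnr, an extracellular matrix protein, had 49 and 15 UMIs, of which single barcodes held 13 and 11. In all, 9 members of R1 and 1 of R2 held at least 5 UMIs of the list. With the mitochondrial limit at 5%, the log2 ratios of Olig1 and Tnr were 0.50 and 0.55, against 2.91 and 2.09 at the limit of 10%. Cacng4, an auxiliary subunit of glutamate receptors, had 36 and 5 UMIs and was not 4-fold higher.

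To compare shares of barcodes at a common depth, each barcode was thinned to 1000 UMIs, which left out 35 members of R1 and 12 of R2 as too shallow. Reference groups were kept barcodes with at least 5 UMIs of exactly 1 of 3 sets of macrophage, endothelial or fibroblast markers. A Camk2n1 UMI was then present in 87.4% of members of R1 and 94.9% of R2, against 23.5% and 14.7% of macrophage, 23.3% and 12.9% of endothelial and 21.0% and 12.1% of fibroblast barcodes. Unthinned, the members' shares were 96.3% and 100%. The shares in the macrophage, endothelial and fibroblast barcodes serve as the background. Per 100 UMIs of the 6 neuronal rule genes, unthinned, Camk2n1 was at 45.4 and 44.7 in members. It was at 67.3 and 54.2 in macrophage, 60.7 and 73.5 in endothelial and 77.7 and 90.5 in fibroblast barcodes. A single macrophage barcode of R1 held 150 of the 514 Camk2n1 UMIs of that group. Whether macrophages, endothelial cells and fibroblasts make Camk2n1 of their own was not tested, so its background is uncertain. For Mt3 the shares were 82.4% and 86.1% of members, against 13.2% and 10.1% of endothelial barcodes. For Gfap they were 37.8% and 58.2% of members, against 6.68% and 7.97% of macrophage barcodes. For Mbp they were 39.3% and 41.8% of members, against 3.74% and 3.08% of macrophage barcodes. For these 4 genes the members' intervals lay above those of the 3 reference cell types in both libraries. The microglial gene C1qa was also present in more members, 19.8% and 12.7%, than endothelial barcodes, 3.49% and 3.23%, or fibroblast barcodes, 3.25% and 5.59%, although the intervals overlapped in R2.

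**Figure D3:**
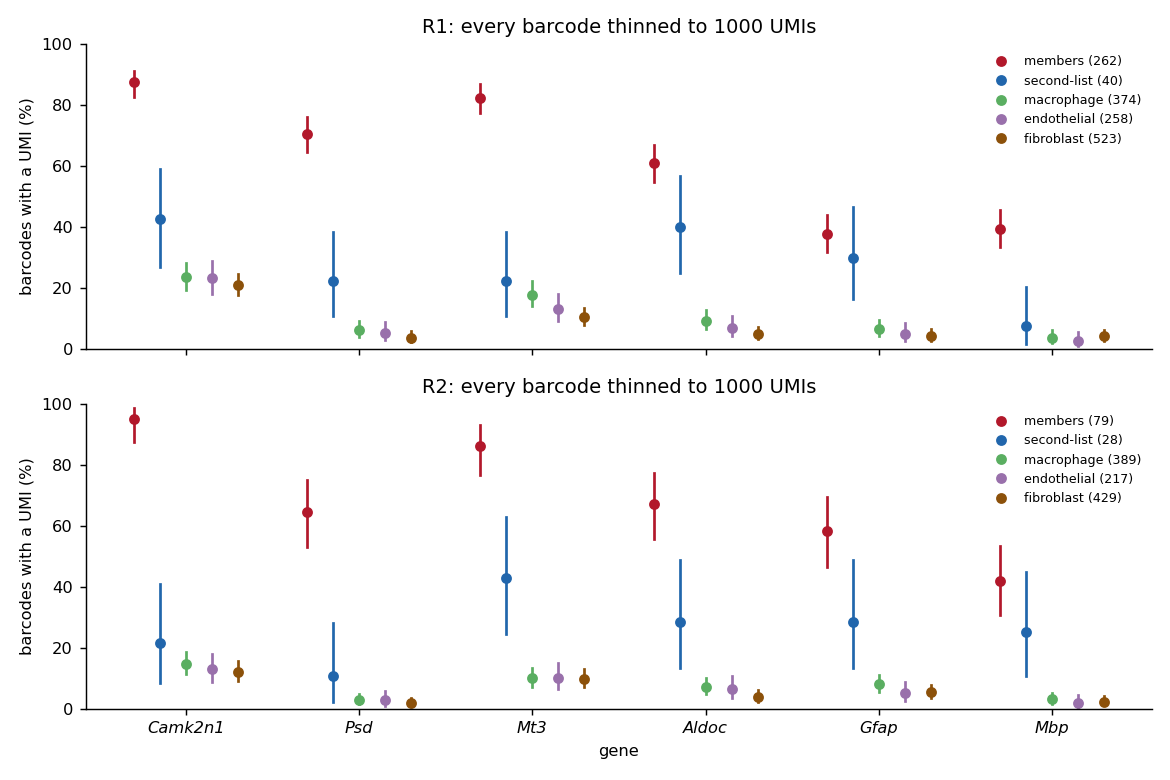
Share of barcodes with at least 1 UMI (vertical, %) of 6 genes after thinning to 1000 UMIs, for R1 (top) and R2 (bottom), with exact 95% binomial intervals; colours give the group and brackets its number of barcodes. Members lie highest for every gene shown, with Camk2n1 in 87.4% and 94.9% of them, against 23.5% and 14.7% of macrophage barcodes, and the intervals of second-list barcodes overlap those of members for Gfap in both libraries.

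Malat1 was low in most members. It had 7693 CPM in members of R1 and 6175 CPM in members of R2, against 32428 and 30103 CPM in the other kept barcodes. Of 9 genes in the nuclear RNA list, 5 had enough counts, and Malat1 was the 1 at least 4-fold lower in both libraries. Neat1, the scaffold RNA of nuclear paraspeckles, had 146 and 198 CPM in members, against 614 and 491 CPM in the others. Kcnq1ot1, an antisense RNA that silences neighbouring genes, had 89.3 and 50.6 CPM in members, against 358 and 233 CPM in the others, with the same limit on strand as Cdr1os. Neat1 and Kcnq1ot1 were lower in members of both libraries without reaching 4-fold in both. The X-inactivation RNA Xist had 111 CPM in members of R1 and 4.21 CPM in members of R2, from 1 UMI, against 298 and 1.66 CPM in the others. Xist is made in female cells, and it differed between the libraries in both groups, so library and sex of the animals cannot be told apart in any difference between R1 and R2. Rian, a noncoding RNA of the Meg3 locus chosen after its values were seen, went against the list, with 70.2 and 63.2 CPM in members, against 11.3 and 5.96 CPM in the others. Mirg, of the same locus, had 0 UMIs in members.

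Per barcode, at least 1% of UMIs came from Malat1 in 43 of 297 members of R1 (14.5%, 10.7 to 19.0025) and 13 of 91 of R2 (14.3%, 7.83 to 23.2). The same mark was reached by 56.9% and 40.7% of the other kept barcodes. It was reached by 88.8% and 87.1% of endothelial barcodes, 84.8% and 63.3% of fibroblast barcodes and 33.3% and 28.7% of macrophage barcodes. The members' intervals lay below the share in each of these groups in both libraries. The typical member had a median of 0.0480% of its UMIs from Malat1 in R1 and 0.0464% in R2.

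The Malat1-rich members were concentrated where the neuronal sum was small. With N of at least 20 UMIs, 9 of 196 members of R1 (4.59%) and 1 of 49 of R2 (2.04%) were Malat1-rich. With N of 10 to 19 the shares were 31.1% of 45 and 7.69% of 13 members, and with N of 5 to 9 they were 35.7% of 56 and 37.9% of 29 members. The summed neuronal level was 4691 and 2027 CPM in Malat1-rich members, against 18659 and 15706 CPM in Malat1-poor members. Malat1-rich members thus made up a larger share near the threshold than far above it.

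Malat1-rich and Malat1-poor members were also compared over all genes by the same 4-fold mark, which 292 of 3341 genes passed as higher (8.74%) and 63 as lower (1.89%) in Malat1-rich members. Leading higher genes beside Malat1 and Neat1 were Slc4a10, a bicarbonate transporter, and H2-D1, Fyb and Ptprc, which are genes of antigen presentation and immune cells. Ptprc had 187 and 538 CPM in Malat1-rich members, against 17.9 and 5.51 CPM in Malat1-poor members. Slc4a10 had 1209 and 628 CPM in Malat1-rich members, against 70.5 and 60.6 CPM in Malat1-poor members. The others were Sned1, an extracellular matrix gene, and Rsrp1, a splicing-related gene. Lower genes were the hemoglobin genes Hba-a1, Hba-a2 and Hbb-bs, whose UMIs lay almost wholly in 13 members of R1 and 4 of R2, and the neuronal genes Itpka, Sowaha, Gng13, Kcnh3 and Cabp1. Itpka, a kinase of dendritic spines, had 12.5 CPM and 0 UMIs in Malat1-rich members of R1 and R2, against 179 and 138 CPM in Malat1-poor members. The microglia list summed to 8398 and 2907 CPM in Malat1-rich members, against 1486 and 1162 CPM in Malat1-poor members.

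Markers of other cells of the leptomeninges were low in members as sums, which the rule's limit on Mrc1, Cldn5, Slc7a11 and Gjb2 sets in part. Endothelial genes had the lowest median of the 19 lists, with 7 of 8 at least 4-fold lower and 473 and 472 CPM in all in members, against 4700.1 and 4325 CPM in the other kept barcodes. Bsg, a membrane protein of blood vessels and red cells, had 338 and 337 CPM in members, against 2468 and 2198 CPM in the others. Itm2a, Egfl7 and Flt1, all vascular genes, had log2 ratios of -3.06, -3.05 and -3.79. Of 7 border macrophage genes, 6 were at least 4-fold lower. Pf4, a chemokine of these macrophages, had 59.5 and 114 CPM in members, against 942 and 1280.4 CPM in the others. F13a1 and Ms4a7, both macrophage genes, had log2 ratios of -3.20 and -3.93. With no limit on those 4 genes the ratios were -0.97 for Pf4, -0.88 for F13a1, -1.34 for Ms4a7, -1.19 for Egfl7 and -1.80 for Bsg, all under 4-fold. Cd74, the invariant chain of antigen presentation, was not 4-fold lower, with 1035 and 624 CPM in members, against 1233 and 1699.6 CPM in the others, and a single member held 402 of its 973 UMIs in R1. The rule capped Cldn5 and Mrc1 directly, and Cldn5 had 19 UMIs in members of R1 and 0 in members of R2.

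Of 11 microglia genes, 10 had enough counts and 2 were at least 4-fold lower. The log2 ratios of these 2, C1qa and C1qb, were -0.85 and -0.92 with no limit on the 4 genes. The complement genes C1qa and C1qb had 565 and 400.4 CPM and 484 and 421 CPM in members, against 2333 and 2391 CPM and 2034 and 2127 CPM in the others. C1qc had 453 and 269.8 CPM in members, against 1763 and 1844 CPM in the others. Of 8 mural genes, 5 had enough counts and 2 were lower. Vtn, a pericyte gene, had 94.6 and 118 CPM in members, against 754 and 617 CPM in the others, and a log2 ratio of -1.36 with no limit on the 4 genes. Pdgfrb, Acta2 and Tagln, also of pericytes and smooth muscle, had at most 22 UMIs each in members of either library. Of 12 fibroblast genes, 10 had enough counts and 2 were at least 4-fold lower. Ptgds, the prostaglandin synthase that arachnoid cells make in bulk, was still counted in 293 of 297 and 91 of 91 members, with 7895 and 15494 CPM in members, against 32517 and 54669.8 CPM in the others. Col1a2, Col1a1 and Igfbp2 had log2 ratios of -2.21, -1.65 and -2.02. Of the 6 genes of ependyma and choroid plexus, Tmem212 and Ccdc153 had 0 UMIs in members, and 119 of the 121 Ttr UMIs of R1 members were in a single barcode.

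Some members held more of these transcripts than the rest. At least 5 UMIs of the microglia list were present in 60 of 297 members of R1 and 18 of 91 of R2. The same mark was passed for fibroblast genes without Ptgds in 29 and 12 members, for endothelial genes in 23 and 3, for border macrophage genes without Cd74 in 8 and 2 and for mural genes in 4 and 2. Hemoglobin genes, Hbb-bs above all, made up at least 50% of UMIs in 13 and 4 members, which held 99488 of the 100556 hemoglobin UMIs of R1 members and 11915 of the 12501 of R2 members. The alpha-globin genes Hba-a1 and Hba-a2 are near-identical copies, so their separate counts are uncertain. Any of these marks was met in 100 of 297 members (33.7%) and 33 of 91 (36.3%). It was met in 30 of 43 and 12 of 13 Malat1-rich members, against 70 of 254 and 21 of 78 Malat1-poor members.

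Leaving these barcodes out, an alternative chosen after the data were seen, left 197 members in R1 and 58 in R2. Of these, 13 (6.599%, 3.56 to 11.0) and 1 (1.72%, 0.0436 to 9.24) were Malat1-rich, so the share of Malat1-rich members was 4.16% ± 3.45 (SD, n = 2) without them and 14.4% ± 0.14 with them. The log2 ratio of the dendritic list was 4.04 without them and 3.61 with them, and 377 genes were at least 4-fold higher in place of 282.

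The mitochondrial limit removed most of the barcodes that met the marker rule. With the limit set aside, 1456 barcodes of R1 and 662 of R2 with at least 400 genes met it. Of these, 1159 (79.6%, 77.4 to 81.6) and 571 (86.3%, 83.4 to 88.8) had more than 10% mitochondrial UMIs. Among the barcodes that did not meet the marker rule, 1815 of 4506 (40.3%) and 1765 of 4712 (37.5%) exceeded the limit. The share over the limit was thus higher for barcodes that met the marker rule than for the rest. This held in both libraries, by more than the binomial intervals. A further 102 and 57 barcodes met the marker rule below the gene limit.

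Members had a median of 6.18% and 7.18% mitochondrial UMIs, against 20.6% and 18.7% in the barcodes over the limit, which had a median depth of 1671 and 1452 UMIs. The summed neuronal level was 16276 and 12493 CPM in members, against 15779 and 11481 CPM over the limit. Psd had 1843 and 1635 CPM in members, against 2253 and 1611 CPM over the limit. Camk2n1 had 7395 and 5585 CPM in members, against 8574 and 5939.6 CPM over the limit. With mitochondrial UMIs left out of the totals, Psd had 1948 and 1742 CPM in members, against 2857 and 1998 CPM over the limit, and Camk2n1 had 7817 and 5949.6 CPM in members, against 10874 and 7365 CPM. On the same scale Gfap had 714 and 1688 CPM in members, against 1309 and 3219 CPM over the limit. These 3 transcripts were thus higher over the limit in both libraries once mitochondrial UMIs were set aside. Not all neuronal genes were: Slc17a7 had 489 and 310 CPM in members, against 519 and 266 CPM, and Nrgn 2174 and 660 CPM, against 2128 and 758 CPM. Hemoglobin made up 10.7% and 5.27% of members' UMIs, against 0.308% and 0.270% over the limit, which lowers the CPM of other genes in members. Malat1 was lower over the limit: 14.5% and 14.3% of members were Malat1-rich, against 2.93% and 0.525% of the barcodes over the limit. Malat1 summed to 7693 and 6175 CPM in members, against 1639 and 724 CPM over the limit. Meg3 did not share that order, with 65.2 and 22.5 CPM in members without mitochondrial UMIs, against 85.5 and 18.4 CPM over the limit.

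**Figure D4:**
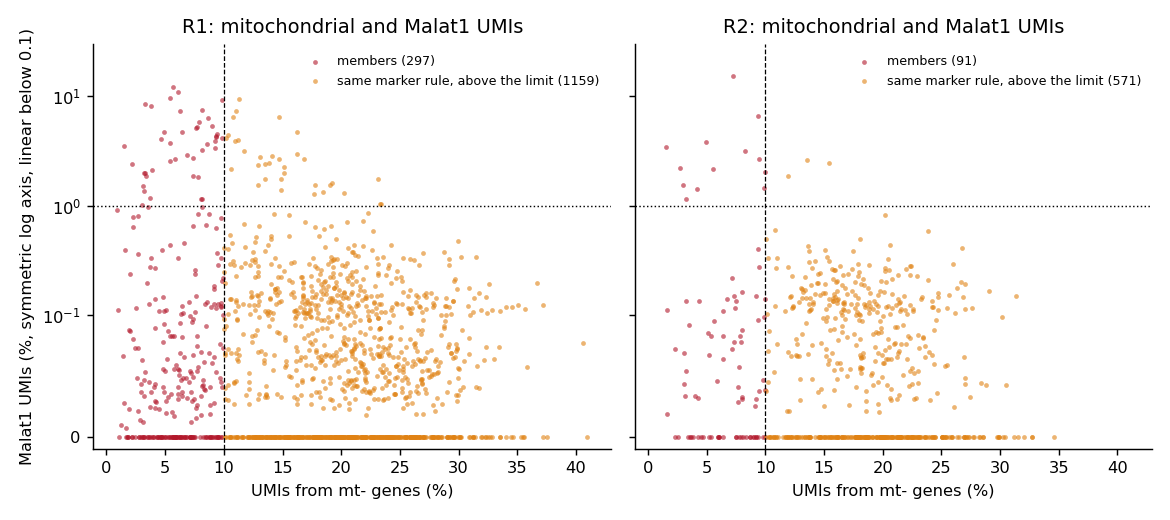
Malat1 share of UMIs (vertical, %, log above 0.1 and linear below) against the mitochondrial share (horizontal, %) for each barcode that met the marker rule in R1 (left) and R2 (right); the dashed line is the 10% limit and the dotted line the 1% Malat1 mark. The 297 and 91 members lie left of the limit and the 1159 and 571 other barcodes right of it, and Malat1-rich barcodes make up 14.5% and 14.3% of those on the left.

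Members were also set beside the kept barcodes in which the second list prevailed. They had S of at least 5 UMIs, S above N and the same limit on the macrophage, endothelial and arachnoid genes, and there were 58 in R1 and 44 in R2. The second list joins astrocyte genes with Gria2 and Meg3 of neuronal cell bodies and nuclei, so these barcodes are called second-list barcodes and given no cell type. Over all genes, 60 of 3421 (1.75%) were at least 4-fold higher in members and 93 (2.72%) were lower. Malat1-rich barcodes were 14.5% and 14.3% of members, against 40 of 58 and 33 of 44 second-list barcodes.

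Leading genes on the members' side outside the rule were the AMPA receptor partner Cnih2, the G protein subunit Gng13, the phosphatase gene Dusp8, the centrosomal gene Cep170b and Selenow, which encodes a small selenoprotein. Cnih2 had 669.8 and 539.5 CPM in members, against 83.4 and 28.7 CPM in second-list barcodes. Selenow had 6227 and 4931 CPM in members, against 751 and 680 CPM in second-list barcodes. Of the 25 dendritic genes, 19 had enough counts, 6 were higher and 0 lower. The list summed to 8758 and 7363 CPM in members, against 2642 and 1589 CPM in second-list barcodes.

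Among the leading genes lower in members were 2 noncoding RNAs of nuclei. Snhg11, of the nuclear RNA list, had 65.9 and 42.1 CPM in members, against 1233 and 1158 CPM in second-list barcodes. A single second-list barcode of R2 held 81 of its 121 UMIs there. Snhg11 was not particular to barcodes with neuronal RNA, with 920 UMIs in 268 fibroblast barcodes of R1 and 884 in 219 of R2. Kcnq1ot1 had 89.3 and 50.6 CPM in members, against 908 and 613 CPM in second-list barcodes. The others outside the rule were the noncoding gene Gm3764, the neurite gene Nav2, Nktr and the kinase gene Tnik. Within the rule, Meg3 had 61.7 and 21.1 CPM in members, against 3624.5 and 1589 CPM in second-list barcodes, a difference that the choice of the groups sets in part. Of 9 nuclear RNA genes, 6 had enough counts, 3 were lower in members and 0 higher. Mt3, by contrast, was higher in members, with 3450.1 and 4750.1 CPM, against 760.1 and 881 CPM in second-list barcodes.

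The make-up of the neuronal transcripts was set beside the traces found in other cells. For this each gene was given as UMIs per 100 UMIs of the 6 neuronal rule genes. Camk2a was at 29.5 in members of R1 and 31.5 in members of R2, against 33.1 and 34.1 in macrophage barcodes and 27.4 and 30.1 in endothelial barcodes. In fibroblast barcodes it was at 35.1 and 41.7. Camk2a is a rule gene and the scale is the rule sum, so these are descriptions. Part of the trace lay in single barcodes. A single macrophage barcode held 50 of the 253 Camk2a UMIs of R1 and another held 23 of the 131 of R2. Among endothelial barcodes, single ones held 20 of 110 and 12 of 34. Psd was at 11.3 and 13.1 in members, against 14.7 and 13.5 in macrophage barcodes. The summed neuronal genes themselves were at 16276 and 12493 CPM in members, against 528 and 261 CPM in macrophage, 516 and 196 CPM in endothelial and 348 and 156 CPM in fibroblast barcodes. The trace in other cells was larger in R1, the library with more members.

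Syt1, Snap25 and Map2 stood in another proportion in second-list barcodes. Syt1 was at 1.16 (0.992 to 1.34) and 0.304 (0.139 to 0.576) per 100 neuronal UMIs in members, against 12.3 (8.12 to 17.9) and 23.8 (16.5 to 33.2) in second-list barcodes, where 1 barcode held 28 of the 34 Syt1 UMIs of R2. Snap25 was at 1.92 (1.71 to 2.15) and 0.877 (0.574 to 1.28) in members, against 6.39 (3.54 to 10.5) and 4.20 (1.56 to 8.91) in second-list barcodes. Map2 was at 4.72 and 2.13 in members, against 12.3 and 13.3 in second-list barcodes and 15.2 and 22.1 in fibroblast barcodes. Second-list barcodes were chosen for N below S, which can raise genes outside N on this scale, and Snap25 is itself part of N. Not every gene was higher, with Psd in R2 at 11.2 in second-list barcodes and 13.1 in members. Nothing is read from these differences. For Map2 the level in fibroblast barcodes was also above that in members.

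The 2 libraries differed in the make-up of the neuronal transcripts. Bc1 was at 1.61 (1.41 to 1.82) per 100 neuronal UMIs in members of R1 and 6.98 (6.06 to 8.003) in members of R2. The same order held in every other group, with 1.66 and 7.13 in the barcodes over the mitochondrial limit, 1.83 and 7.69 in second-list, 2.09 and 6.25 in macrophage, 3.23 and 7.96 in endothelial and 2.67 and 6.53 in fibroblast barcodes. Nrgn ran the other way, at 12.6 (12.1 to 13.2) in members of R1 and 4.96 (4.21 to 5.80) in members of R2, with 10.6 and 5.32 over the mitochondrial limit and 11.6 and 6.25 in macrophage barcodes. In endothelial barcodes this order was not seen, at 10.4 (7.63 to 13.9) in R1 and 17.7 (11.2 to 26.0) in R2, where the value rests on 20 UMIs. Among macrophage barcodes of R1, a single one held 27 of the 89 Nrgn UMIs. With 1 library on each side, the difference between R1 and R2 has no replicate check.

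**Figure D5:**
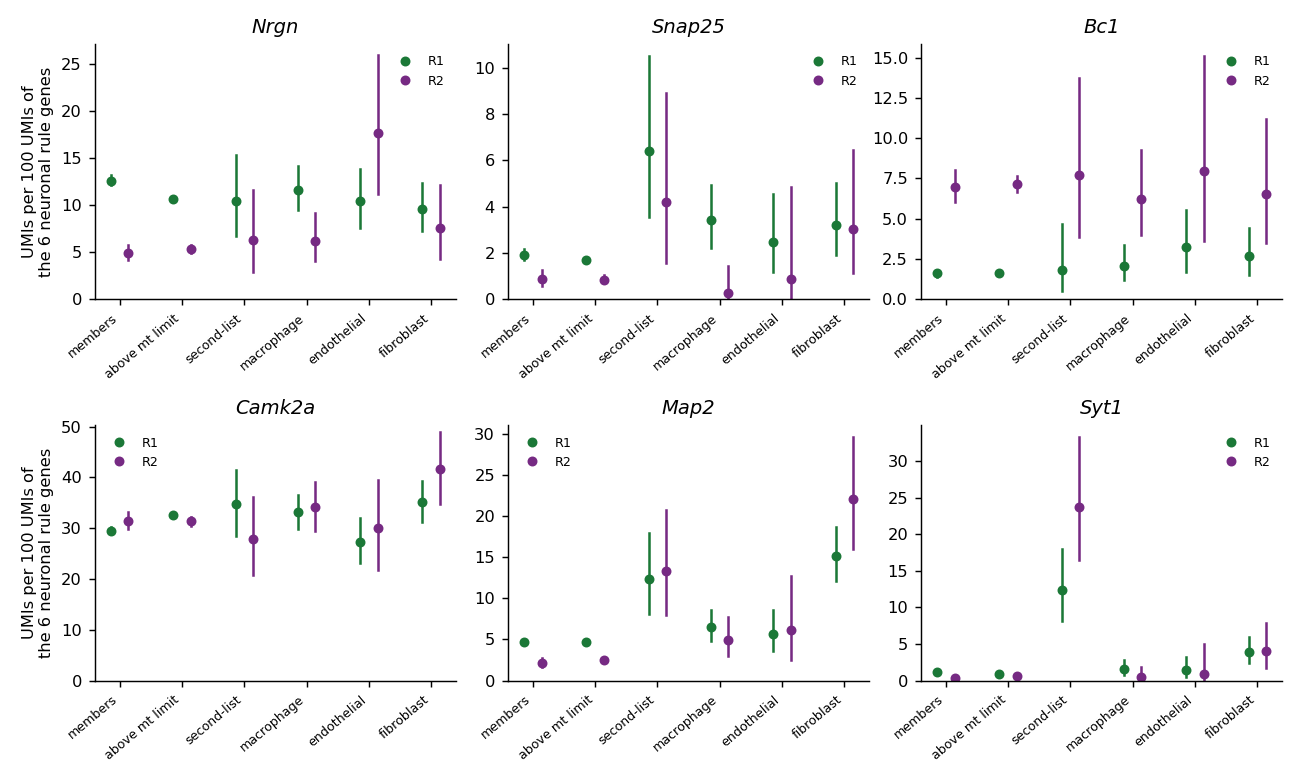
UMIs of 6 genes per 100 UMIs of the 6 neuronal rule genes (vertical, from 0) in members, in barcodes that met the marker rule over the mitochondrial limit and in 4 reference groups, for R1 and R2, with exact 95% intervals that cover counting error only. Bc1 is higher in R2 than in R1 in all 6 groups, 1.61 against 6.98 in members, and Syt1 stands at 1.16 and 0.304 in members, below the 12.3 and 23.8 in second-list barcodes.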

How the data were processed

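RNA was measured by droplet-based single-cell sequencing in 2 libraries of mouse leptomeninges. The deposited matrices hold unnormalised whole-number UMI counts by gene and cell barcode. Per the file headers they are output of Cell Ranger 4.0.0, on genome build mm10 per the submitters' processing notes; aligner settings, annotation version and strand setting are not given in the sources used here. The deposited feature and barcode lists pair gene symbols with identifiers, over 32287 features.

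Kept barcodes had 400 genes or more and mitochondrial UMIs of no more than 10%. No doublet caller was run, and doublets may remain. The members and the 19 gene lists were chosen with earlier results of these data known, so no test was made. Counts were summed per library and group, and CPM values were scaled by the group's UMI total. Log2 ratios have 10 CPM added on each side for single genes, and a gene needed a 4-fold ratio in both libraries and 50 CPM on the higher side in both to count. Genes had enough counts when the higher side had at least 50 CPM in both libraries. Shares have exact Clopper-Pearson 95% intervals and counts exact Poisson ones, for counting error only, and 0 UMIs allow 3. Macrophage barcodes held at least 5 UMIs of Mrc1, Pf4, Lyve1, Cd163, F13a1 and Ms4a7, endothelial ones of Cldn5, Ly6c1, Flt1, Pecam1 and Itm2a, and fibroblast ones of Dcn, Col1a1, Col1a2, Slc7a11, Gjb2 and Slc6a13, none of them members. Named genes were the rule genes, the 4 genes per list with most UMIs in members, list genes with 0 UMIs, the 10 largest ratios outside the lists among genes with at least 20 UMIs in members of each library, and the 8 largest each way in the other 2 comparisons, and further ones chosen after their values were seen: Bc1, Egr3, Rian, Syt1, Aldoc, Gfap, Gad1, Gad2, and the genes in the closing section. Results for some named genes are not reported here. Bc1 was read from the GENCODE transcripts of mm10. The counting of ratios was tested on simulated data. Tools were python 3.11.15, numpy 2.4.6, scipy 1.17.1, pandas 2.3.3 and matplotlib 3.10.9. Alternatives covered the mitochondrial and gene limits, the neuronal minimum, the second-list and other-cell limits, depth, scaling and each library left out.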

Additional observations from a re-analysis of the deposited data

Results flagged for a closer look

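Barcodes above the mitochondrial limit were outside the main measurement and still held the neuronal transcripts. Beside 297 members of R1 and 91 of R2 within the limit, 1159 barcodes of R1 and 571 of R2 with 400 genes or more met the marker rule above it.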

How the results depend on the processing

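The mean share of members among kept barcodes, 6.47%, stayed within its spread between libraries under every alternative but one, and was 18.4% with no mitochondrial limit. The share of Malat1-rich members, 14.4%, was 18.0% at no more than 5% mitochondrial UMIs, 3.85% with no mitochondrial limit, 24.6% at 1000 genes, 6.38% at N of 10, 13.8% at N of 2 times S, 21.8% with no limit on other-cell markers, 5.24% after thinning to 1000 UMIs and 4.16% without members holding other-cell transcripts, the last chosen after seeing the data. The dendritic log2 ratio, 3.61, was 3.34 with no mitochondrial limit, 3.78 at 1000 genes, 3.90 at N of 10, 3.49 with no limit on other-cell markers, 3.87 after thinning and 4.04 without members holding other-cell transcripts. The count of higher genes, 282, ran between 225 and 377 over all settings with both libraries. Leaving out each library in turn gave 3.00% to 9.94%, 14.3% to 14.5%, 3.54 to 3.69 and 340 to 384 genes. The causes were not tested.

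Of 90 named genes 43 were called, and all kept their sign under every alternative. Among the values that came under 4-fold were Olig1 at 0.50 and Tnr at 0.55 at no more than 5% mitochondrial UMIs, and C1qa at -0.85 and Pf4 at -0.97 with no limit on other-cell markers. Among the genes not called, 13 changed sign under some setting; Hbb-bs was at -5.24 without members holding other-cell transcripts and at 0.46 with them. No paired analysis was possible because the labels give 1 group of 2 libraries with no matched samples in a second group; each ratio was formed within a library. Depth limits the rare genes, since 3 UMIs come to 3.19 CPM in R1 and 12.6 CPM in R2.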

Other observations

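Single members could carry RNA of cells that the lists did not cover. Ccl5, a chemokine of T and natural killer cells, had 200 UMIs in 2 members of R2, of which 199 were in 1 barcode, and 0 in members of R1. Gzma, a granule enzyme of the same cells, had 113 UMIs in 1 member of R2. Further neuronal genes named here after their values were seen were also higher in members. Gap43, a growth-associated protein of axon endings, had 153 and 143 CPM in members, against 4.33 and 3.64 CPM in the other kept barcodes. Nefl, the light neurofilament protein, had 295 and 349.8 CPM in members, against 11.5 and 9.11 CPM in the others. Pcp4 had 389 and 514 CPM in members, against 13.3 and 8.61 CPM in the others. Sst and Npy, peptides of interneurons, had 41 and 14 UMIs and 48 and 7 UMIs over all members.

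Neutrophil transcripts, which the lists did not cover, led the genes lower in members. S100a8, a calcium-binding protein that fills neutrophils, had 11.7 and 4.21 CPM in members, against 2656 and 1557 CPM in the other kept barcodes. Lcn2, a neutrophil granule protein, had 1 UMI in members of R1 and 0 in members of R2, against 1936 and 1498 UMIs in the others.

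Ppp3ca, also chosen after its values were seen, was higher in members of R1 than of R2, as Nrgn and Map2 were. Ppp3ca, a subunit of the phosphatase calcineurin, had 375 and 122 CPM in members, against 103 and 80.8 CPM in the others. With 1 library on each side this difference was not tested.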
